A study of Mus musculus with 47 samples.

Results

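Cytosolic sulfotransferases were followed in whole mouse liver across both sexes, with and without the nuclear receptor PXR, and with and without antibiotic depletion of the gut microbiota. The members were the 9 genes Sult1a1, Sult1b1, Sult1c2, Sult1d1, Sult1e1, Sult2a1, Sult2a2, Sult3a1 and Sult5a1, taken by gene name from the array, which carried 15 probes for them among its 56605 probes. Of these, 14 probes passed the filter on dim signal, and every member kept at least 1 probe, against 21873 genes and 32974 probes tested in all. Their levels were read on 47 single-colour arrays, each from the liver of 1 mouse.

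Cytosolic sulfotransferases move a sulfonate group from the donor PAPS onto hydroxyl or amine groups of steroids, thyroid hormones, bile acids, catecholamines, phenols and drugs, which makes most of these substrates more soluble in water and easier to excrete. PAPS is made from ATP and sulfate by the PAPS synthases, and sulfatases can take the sulfate off again. In the liver the family belongs to the phase of drug metabolism that follows oxidation, and several members are known in rodents for a level that depends on sex and on the pituitary pattern of growth hormone. PXR, encoded by Nr1i2, is a nuclear receptor that binds drugs, steroids and bile acids and switches on genes of oxidation, conjugation and transport.

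The mice were 6-month-old littermates on a C57BL/6J background, males (M) or females (F), carrying both working copies of the receptor gene (Pxr+/+) or neither (Pxr-/-), and all were bred from Pxr+/- parents. The study describes no restriction of the deletion to the liver, so an effect that starts outside the liver cannot be told apart from one that starts in it. Every combination of sex and genotype was studied both as control (CTRL) and after antibiotics (ATB), given in the drinking water for 2 weeks as ampicillin at 1 g/L, neomycin at 1 g/L and vancomycin at 0.5 g/L. There were 6 mice in each of 7 groups and 5 in the group of Pxr-/- CTRL males. Mice of a group were housed in 2 cages and the cage of each mouse was not given, so the p-values measure the spread between mice as if each had been housed alone.

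Levels are log2 normalized fluorescence of a probe, a difference of 1 being a doubling, and they compare the same probe between mice, never a probe with another probe. Between 31067 and 34458 probes per array stood well above background, the raw 75th percentile of intensity ran from 306 to 492.5, and arrays of a group correlated at r = 0.987 to 0.996 over probes. The Nr1i2 probe gave medians of 11.68 and 11.59 in Pxr+/+ CTRL and ATB males, 11.36 and 11.15 in Pxr-/- males, 12.03 and 11.98 in Pxr+/+ females, and 11.71 and 11.58 in Pxr-/- females. Its differences between genotypes did not pass the test (limma adjusted p from 0.0864 to 0.998), and since the place of the probe relative to the deleted part is not given in the sources used here, it checks nothing about the genotype labels. Xist lay between 7.80 and 8.31 in the females and between 4.05 and 4.82 in the males, and no array went against its sex label. All 9 hepatocyte markers tested of a list of 10 were above background on all 47 arrays, and their summed level lay between 20.70 and 21.06 in every group. Lactase (Lct), which defines enterocytes, was above background on 0 arrays and the B cell gene Cd79a on 1. In bulk tissue, fewer cells of a type and less RNA per cell cannot be told apart.

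Probe sequences are shown first for the Sult2a genes, because these genes are close copies of each other and the reading of their signals turns on how far their probes differ. The lines give bases 7 to 36 of the Sult2a1 probe, counted from 1 at its 5′ end, and the aligned bases of the probes for Sult2a2 and Sult2a4, with capitals where a base differs from the Sult2a1 probe.
Sult2a1: ttgttgtgtatcttgaatacctagatgtgg
Sult2a2: ttgttCtAtatcttgaatacctGAatAtgg
Sult2a4: ttgttCtgtatcttgaatacctagatgtgg
Within these 30 bases the Sult2a2 probe differed at 5 places (G12C, G14A, A29G, G30A and G33A) and the Sult2a4 probe at 1 (G12C). Over the aligned length, the Sult2a2 probe shared 54 of 59 bases with the Sult2a1 probe, the Sult2a4 probe 51 of 54, and the Sult2a4 and Sult2a2 probes shared 47 of 53 with each other. The array's own annotation lists a Sult2a4 transcript for the Sult2a1 probe and a Sult2a5 transcript for the Sult2a2 probe, so the signals of these genes are uncertain as to which gene of the cluster they came from. On mm9, the build of the probe annotation, the Sult2a1 probe lies at chr7:14381602-14381661 and the Sult2a2 probe at chr7:14364926-14364985.

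The first 30 bases of the other probes on which the results below turn are given so that each signal can be traced to its transcript.
Sult1a1: aaatatgagtggatatggctatactgggaa
Sult1e1: aatggagctctgagccacttccttgtgtct
Sult3a1: cagacaaaatgattaccttgtgcctagatt
Sult5a1: agctgaatgagaagttcaacgctgtctacc
These 4 probes lie on mm9 at chr7:133816605-133816664 for Sult1a1, chr5:88005187-88005246 for Sult1e1, chr10:33599244-33599303 for Sult3a1 and chr8:125666951-125667010 for Sult5a1. Sult1b1 (chr5:87943760-87943819) and Sult1d1 (chr5:87984658-87984717) lie in the same stretch of chromosome 5 as Sult1e1.

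Promoter windows of RefSeq on GRCm38.p6, a different build from that of the probes, were found for 7 of the 9 members, with 8 windows since Sult1b1 has more than 1 start. Sult2a1 and Sult2a2 had no entry. The windows were searched on both strands over the 250 bases before the start for TTCNNNGAA, the form of site bound by STAT5, which carries the growth hormone signal, and for the nuclear receptor half-sites AGGTCA and AGTTCA. The strips printed hold the match in the member with the widest sex difference of those with a window, Sult3a1, and in the member that moved most after antibiotics, Sult1e1, with the match in capitals.
Sult3a1, chr10:33857593-33857652, plus strand: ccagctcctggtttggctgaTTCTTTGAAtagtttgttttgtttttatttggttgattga
Sult1e1, chr5:87591685-87591744, minus strand: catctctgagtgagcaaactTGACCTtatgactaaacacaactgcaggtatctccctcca
The Sult3a1 match began 109 bases before the start, and Sult3a1 was the only 1 of the 7 members with a window to hold TTCNNNGAA, which 7.02% of 32851 windows in the whole table hold. The Sult1e1 match, AGGTCA read on the other strand, began 113 bases before the start, and 14.02% of all windows hold AGGTCA. Sult1b1 held AGGTCA 123 bases before 1 of its starts, Sult1b1 and Sult1d1 held AGTTCA, which 11.8% of windows hold, and Sult1a1, Sult1c2 and Sult5a1 held none of the 3. A match is only a run of letters in a window.

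**Figure D1:**
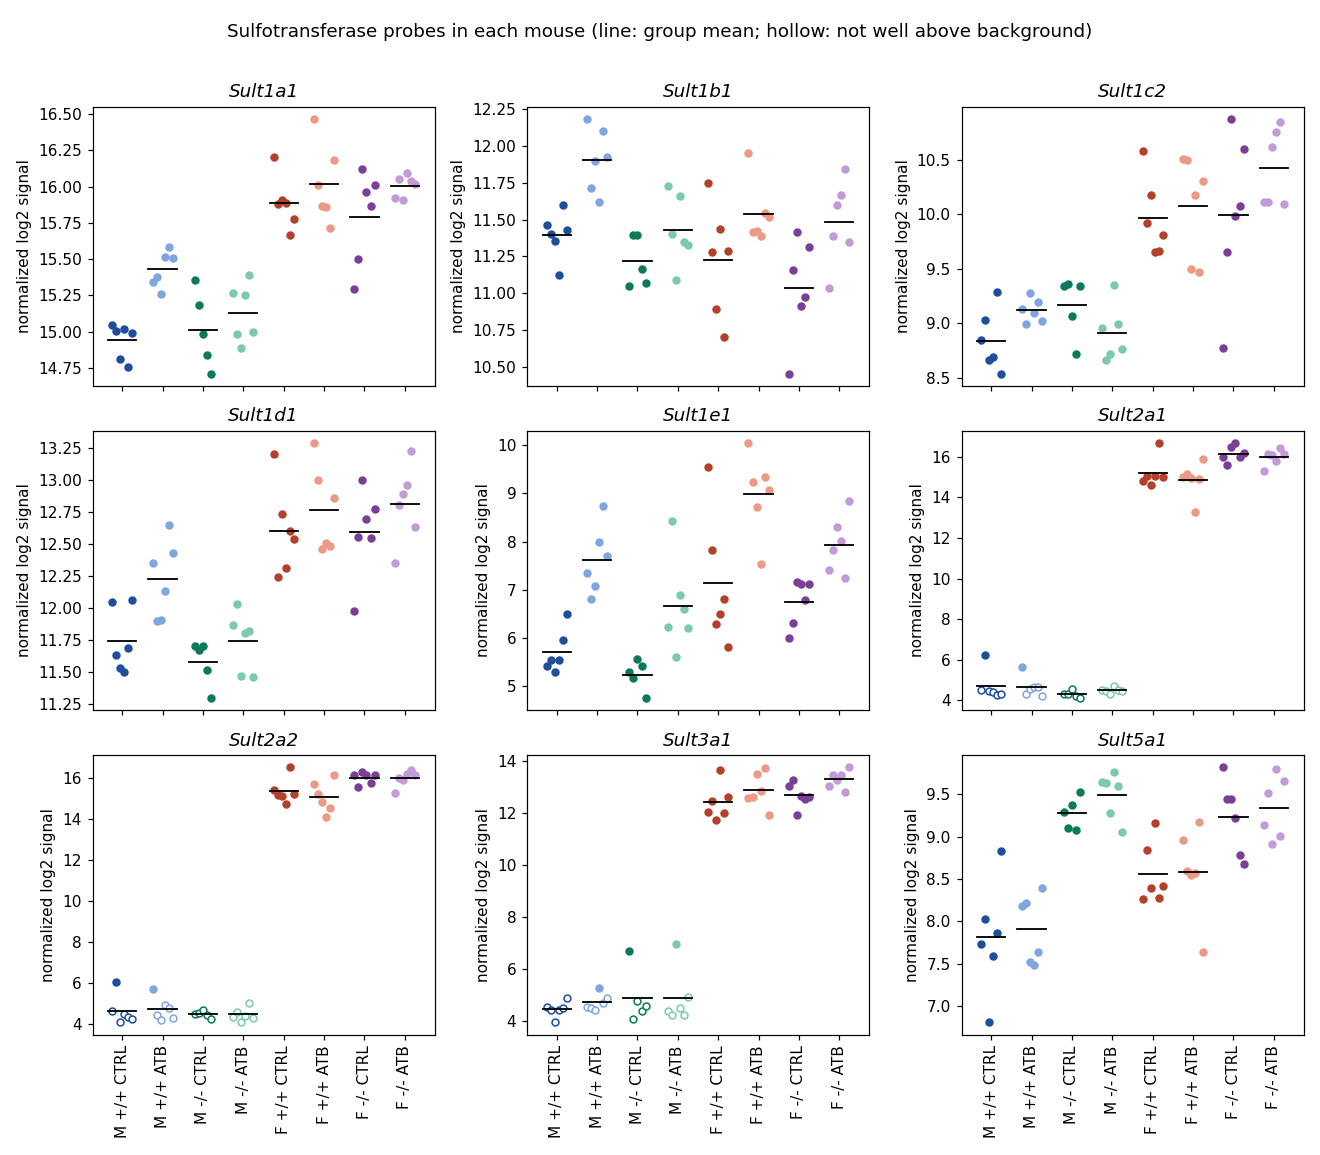
Normalized log2 signal (vertical axis) of the main probe of each member in every mouse, by group (horizontal axis), with a line at the group mean and hollow points where the probe was not well above background on that array. Sult2a1, Sult2a2 and Sult3a1 separate the sexes completely, and Sult5a1 lies higher in Pxr-/- than in Pxr+/+ males.

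Sex set the levels of most of the family. In Pxr+/+ CTRL mice, 8 of the 9 members were lower in males than in females and none was higher, Sult1b1 being the exception. In the other 3 conditions 7 of 9 were lower in males, Sult1b1 and Sult5a1 not passing. Called differences ran from 1.45-fold for Sult1d1 in Pxr+/+ ATB mice to bounds over 2590-fold for the Sult2a genes in Pxr-/- mice. The calls (limma, false discovery rate at most 0.05 and fold change over 1.2) are to be read against a sex difference in 36.4% of all genes in Pxr+/+ CTRL mice, 14.1% in Pxr+/+ ATB mice, 18.4% in Pxr-/- CTRL mice and 30.1% in Pxr-/- ATB mice. Genes lower in males were 34% of all genes in Pxr+/+ CTRL mice, 9.98% in Pxr+/+ ATB mice, 15.5% in Pxr-/- CTRL mice and 27.3% in Pxr-/- ATB mice. The median male minus female difference over the 9 members was -1.13, -0.96, -1.01 and -1.28 in these 4 conditions, beside -0.20, -0.03, -0.12 and -0.18 over all probes.

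The lean of all genes toward females depended on the scaling, and the direction of the members' called differences did not. Of the genes called for sex in Pxr+/+ CTRL mice, 93.1% were lower in males, against 50.5% after quantile normalization. The same share moved from 70.6% to 53.2% in Pxr+/+ ATB mice, from 84.4% to 47.9% in Pxr-/- CTRL mice and from 90.5% to 47.9% in Pxr-/- ATB mice. No member's sex difference that passed the test changed sign under any alternative run. Markers of other cell types moved with sex as well, and their part in the members' differences was not tested. In Pxr+/+ CTRL mice, 9 of 10 Kupffer cell and macrophage markers were lower in males by at least 1 probe, Csf1r being higher by another, with a summed level of 14.03 to 14.49 in males and 14.91 to 16.01 in females. In Pxr-/- ATB mice none of the 10 was lower in males and 1 was higher. Of 6 T and NK cell markers tested, 4 were lower in males in all 4 conditions. Their summed level went the other way, with medians of 13.38 in males and 13.33 in females among Pxr+/+ CTRL mice. The medians were 13.78 and 13.53 in Pxr+/+ ATB, 13.44 and 13.32 in Pxr-/- CTRL, and 13.69 and 13.44 in Pxr-/- ATB mice. Of 7 stellate cell and fibroblast markers, 6 were lower in Pxr+/+ CTRL males, 1 in Pxr+/+ ATB, 0 in Pxr-/- CTRL and 3 in Pxr-/- ATB males.

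Sult2a1 and Sult2a2, hydroxysteroid sulfotransferases that act on DHEA and on bile acids, were read in every female and in hardly any male. In Pxr+/+ CTRL females the lowest, median and highest levels of Sult2a1 were 14.60, 15.01 and 16.66, and in the males 4.24, 4.44 and 6.23. The sexes did not come near each other, and 1 of the 6 males stood above background. The fitted difference was -10.50 for Sult2a1 (SE 0.31, adjusted p = 8.16e-29) and -10.72 for Sult2a2 (SE 0.29, adjusted p = 3.62e-30). The male means behind both are mostly background, so the sizes are not exact.

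The sexes stood far apart in the other conditions as well. After antibiotics in Pxr+/+ mice, 1 of 6 males was above background, and the fitted differences, again against mostly background, were -10.20 for Sult2a1 and -10.37 for Sult2a2. Among Pxr-/- males none was above background in either treatment, so only a bound can be given there. Sult2a1 was at least 3013-fold higher in Pxr-/- CTRL females than in males (adjusted p = 6.15e-30) and at least 2659-fold higher after antibiotics (adjusted p = 2.95e-30). For Sult2a2 the bounds were 2703-fold (adjusted p = 1.31e-30) and 2590-fold (adjusted p = 1.51e-31). Within each of the 3 array washing batches the Sult2a1 difference in Pxr+/+ CTRL mice stayed between -11.53 and -9.76.

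Sult3a1, an enzyme known for sulfonating amines, had the same pattern at a smaller size. Its levels were 11.73, 12.26 and 13.67 (lowest, median, highest) in Pxr+/+ CTRL females, and 3.97, 4.47 and 4.89 in the males, of which none was above background. It was at least 215-fold higher in these females (adjusted p = 1.26e-21), and its second probe, above background in no male of any group, gave bounds of 130-fold to 243-fold over the 4 conditions. By the main probe 1 male was above background in each of the other 3 male groups. Both probes thus separated the sexes without overlap in all 4 conditions.

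Sult1a1, the main phenol sulfotransferase of the liver, was present in both sexes on all 47 arrays and lower in males by less than 2-fold. Pxr+/+ CTRL males ran from 14.76 to 15.04 (mean 14.94) and females from 15.67 to 16.21 (mean 15.89), with no overlap. The difference was -0.95 (SE 0.12, adjusted p = 9.67e-08), a fold of 1.93, and -0.59, -0.78 and -0.88 in Pxr+/+ ATB, Pxr-/- CTRL and Pxr-/- ATB mice. In Pxr-/- CTRL mice alone the ranges of the sexes overlapped. Its second probe gave -0.91, -0.61, -0.86 and -0.93 in the same order.

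Sult1c2 and Sult1d1 stood between these extremes. Sult1c2, a member of the subfamily that acts on small phenols and hydroxyarylamines, lay at 8.54, 8.77 and 9.28 in Pxr+/+ CTRL males and at 9.65, 9.87 and 10.58 in females, which differed by -1.13 (SE 0.22, adjusted p = 0.00019). It differed by -0.96, -0.83 and -1.52 in Pxr+/+ ATB, Pxr-/- CTRL and Pxr-/- ATB mice, with overlapping ranges only in Pxr-/- CTRL mice. There the Sult1c2 call was lost on leaving out 1 mouse in 3 of 11 cases (limma adjusted p up to 0.0622) and in 1 of 10 alternatives. Sult1d1, known for acting on catecholamines and their like, lay at 11.50, 11.66 and 12.06 in Pxr+/+ CTRL males and at 12.24, 12.57 and 13.20 in females. These ranges did not overlap, and the difference was -0.86 (SE 0.17, adjusted p = 0.000136). It was smallest after antibiotics in Pxr+/+ mice, at -0.54 (SE 0.17, adjusted p = 0.0266), where the ranges overlapped and the call was lost on leaving out 1 mouse in 6 of 12 cases. Within the washing batches this difference ran from -0.87 to -0.10.

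Sult1e1, the estrogen sulfotransferase, had the widest standard error of the 9 members. Pxr+/+ CTRL females ran from 5.82 to 9.55 (median 6.66) and males from 5.29 to 6.49 (median 5.55), and the ranges overlapped. The difference of -1.42 (SE 0.44, adjusted p = 0.0114) was no longer called without Pxr+/+ CTRL female 1 (-0.93, adjusted p = 0.0615), and within the washing batches it ran from -2.47 to 0.67, changing sign. The differences of -1.38, -1.51 and -1.28 in the other 3 conditions were negative within every batch, and lost the call on leaving out 1 mouse in 7 of 12, 3 of 11 and 5 of 12 cases.

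Sult5a1 and Sult1b1 were the members not called in every condition. Sult5a1, whose substrates are little described, was lower in Pxr+/+ CTRL males, with a difference of -0.75 (SE 0.24, adjusted p = 0.0154), overlapping ranges and within-batch differences from -0.99 to 0.42. The call was lost without Pxr+/+ CTRL male 1 or Pxr+/+ CTRL female 4, and under 4 other ways of scaling the arrays. In Pxr-/- mice its sexes differed by 0.05 (95% interval -0.46 to 0.55) and 0.15 (-0.33 to 0.64). Sult1b1, which sulfonates thyroid hormones, gave male minus female differences of 0.17, 0.37, 0.18 and -0.05, none of which passed (adjusted p from 0.113 to 0.808). With each array scaled to its 75th percentile it was called higher in Pxr+/+ males, by 0.47 in CTRL (adjusted p = 0.0208) and 0.44 in ATB mice (adjusted p = 0.0319).

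**Figure D2:**
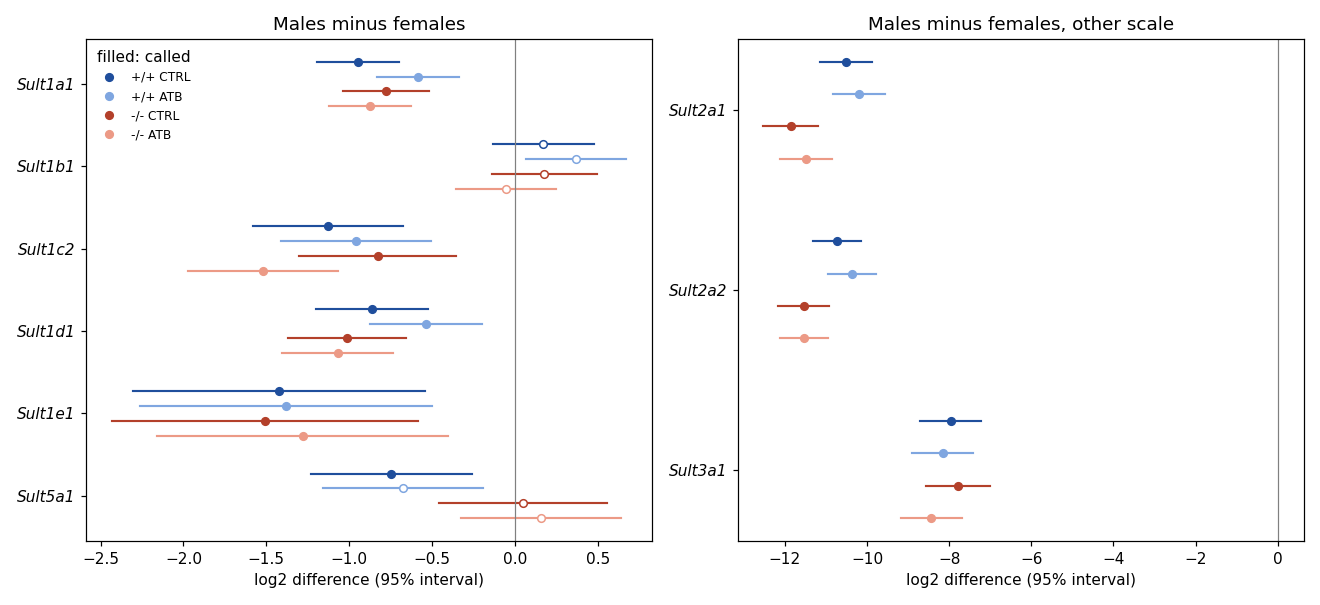
Male minus female difference in log2 signal (horizontal axis) of each member's main probe in the 4 combinations of genotype and treatment, with 95% confidence intervals and filled points where the difference was called; Sult2a1, Sult2a2 and Sult3a1 have a scale of their own. All called differences lie below 0, and Sult1b1 has no filled point; where no male was above background the point is the fitted difference and not a bound.

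Loss of PXR changed 1 member in males and none in females by the test. Sult5a1 was higher in Pxr-/- than in Pxr+/+ males, 2.76-fold in CTRL and 3.01-fold in ATB mice, and no member was lower. These are 1 of 9 members each time, against 0.192% of all genes called in CTRL males and 1.1% in ATB males, and against 0.16% and 0.315% of genes called higher. In females limma called none of the 9 members in CTRL mice, where 4.01% of genes were called, nor in ATB mice, where 0.229% were. By their main probe, 3 and 4 members had an unadjusted p under 0.05 by limma. Counted by any probe, 5876 and 1510 of all 21873 genes had such a p in CTRL and ATB females. The median difference over the 9 members was 0.02 and 0.35 in CTRL and ATB females, beside -0.11 and 0.01 over all probes. In males, where Sult2a1, Sult2a2 and Sult3a1 were at background, the median over the other 6 was -0.05 and -0.39 in CTRL and ATB mice, beside -0.04 and -0.13 over all probes. Of the genes called in ATB males 71.4% were lower in Pxr-/- mice, against 17.9% after quantile normalization, and in CTRL females 94.4% against 57.3%.

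Sult5a1 in CTRL males ran from 6.82 to 8.83 (median 7.80) with PXR and from 9.08 to 9.53 (median 9.30) without it. After antibiotics the males ran from 7.49 to 8.40 (median 7.91) with PXR and from 9.05 to 9.76 (median 9.62) without it. Neither pair of ranges overlapped. The differences were 1.47 (SE 0.25, adjusted p = 0.000961) and 1.59 (SE 0.24, adjusted p = 5.47e-05), stayed called under each of the 10 alternatives (1.35 to 1.57 and 1.59 to 1.83) and on leaving out any 1 mouse (1.27 to 1.71 and 1.50 to 1.70), and were above 0 within every washing batch, from 0.70 to 1.67 and from 0.65 to 2.12. The second Sult5a1 probe, which was near background in Pxr+/+ males (above it in 4 of 6 CTRL and 5 of 6 ATB mice), gave 0.95 (adjusted p = 0.132) and 0.72 (adjusted p = 0.0965), with ranges that did not overlap.

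In females the Sult5a1 differences of 0.68 (SE 0.24, adjusted p = 0.101) and 0.76 (SE 0.24, adjusted p = 0.501) did not pass and the ranges overlapped. The male effect was larger than the female one by 0.79 in CTRL and 0.83 in ATB mice, and neither of these differences passed (adjusted p = 0.974 and 0.484). By mean level the 4 Pxr-/- groups of Sult5a1, from 9.23 to 9.50, all stood above the 4 Pxr+/+ groups, from 7.81 to 8.58, with the 2 sexes mixed among the Pxr-/- groups. Neighbouring groups in that order overlapped throughout.

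The other members gave values that did not pass. In females without PXR, Sult2a1 was at 15.59, 16.09 and 16.67 (lowest, median, highest) in CTRL mice, beside 14.60, 15.01 and 16.66 with PXR, and differed by 0.96 (SE 0.31, adjusted p = 0.0753). After antibiotics it differed by 1.12 (SE 0.31, adjusted p = 0.25). All of the overlap between the CTRL ranges came from 1 Pxr+/+ CTRL female, number 5, without which the CTRL difference was 1.27 and called (adjusted p = 0.0250). Sult2a2 differed by 0.63 (adjusted p = 0.201) and 0.91 (adjusted p = 0.52), and within the washing batches all 4 of these differences were above 0. In the same CTRL females 6 of 10 Kupffer cell and macrophage markers and 4 of 6 sinusoidal endothelial markers were lower without PXR. Of all genes, 3.79% were called lower there. These marker counts were made under the main scaling only, and the part of the markers in the Sult2a values was not tested.

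In ATB males without PXR, Sult1b1 (-0.48, adjusted p = 0.09), Sult1d1 (-0.49, adjusted p = 0.112), Sult1a1 (-0.30, adjusted p = 0.157) and Sult1e1 (-0.95, adjusted p = 0.192) gave lower values that missed the threshold. In CTRL males the same 4 members differed by -0.18, -0.16, 0.07 and -0.47, each with an adjusted p of 0.998. Sult1c2 differed by at most 0.35 in any of the 4 comparisons of genotype, and Sult3a1 by at most 0.43 in females.

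**Figure D3:**
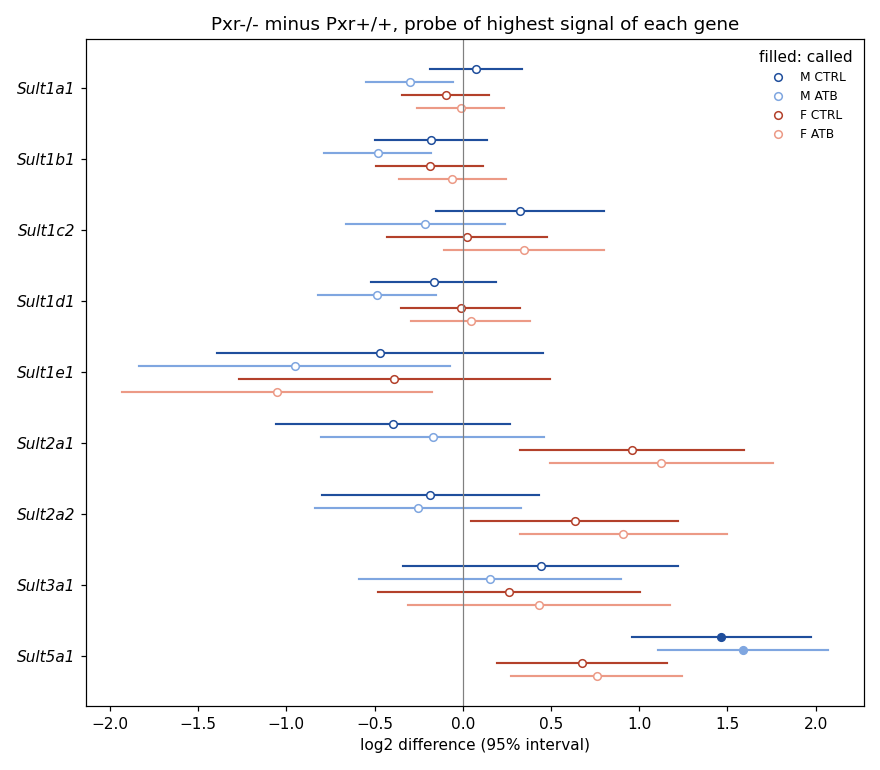
Pxr-/- minus Pxr+/+ difference in log2 signal (horizontal axis) of each member's main probe in CTRL and ATB males and females, with 95% confidence intervals and filled points where the difference was called. Sult5a1 in males, at 1.47 and 1.59, holds the only filled points; Sult2a1, Sult2a2 and Sult3a1 in males are levels at background.

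Antibiotics raised 3 of the 9 members in Pxr+/+ males and lowered none. Sult1e1 rose 3.74-fold, Sult1a1 1.4-fold and Sult1d1, by its second probe only, 1.61-fold. In that comparison 1.28% of all genes were called and 1.1% were called higher. The median difference was 0.49 over the 6 members not at background in males, beside 0.10 over all probes, and 14.6% of the called genes were lower after antibiotics, against 64.95% after quantile normalization. The test called no member in Pxr-/- males, where 0.11% of genes were called, in Pxr+/+ females (0.0183%) or in Pxr-/- females (0.0411%), with 1, 2 and 2 members at an unadjusted p under 0.05 by limma. Counted by any probe, 1995, 3027 and 3456 of all 21873 genes had such a p in these 3 comparisons. The medians there were 0.19 over the same 6 members in males, and 0.13 and 0.22 over the 9 members in females, beside 0.01, -0.06 and 0.06 over all probes.

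Sult1e1 in Pxr+/+ males ran from 5.29 to 6.49 (median 5.55) in CTRL and from 6.81 to 8.75 (median 7.53) in ATB mice, without overlap. The difference of 1.90 (SE 0.44, adjusted p = 0.0208) was above 0 within every washing batch (1.21 to 2.62). It kept its call in 9 of 10 alternatives (1.31 to 2.43) and lost it without CTRL male 1, CTRL male 3 or ATB male 5 (adjusted p up to 0.0784). The higher level after antibiotics was seen in every other combination of sex and genotype without passing the test across all probes. Pxr-/- males differed by 1.42 (SE 0.46, adjusted p = 0.433), Pxr+/+ females by 1.86 (SE 0.44, adjusted p = 0.157) and Pxr-/- females by 1.19 (SE 0.44, adjusted p = 0.249).

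The CTRL and ATB ranges of Sult1e1 did not overlap in Pxr-/- males or in Pxr-/- females, and overlapped in Pxr+/+ females, where CTRL female 1 stood highest of its group. Pxr-/- males ran from 4.76 to 5.55 in CTRL and from 5.60 to 8.42 in ATB mice. Pxr-/- females ran from 5.99 to 7.15 and from 7.24 to 8.85. Without Pxr+/+ CTRL female 1, the difference in Pxr+/+ females was 2.36 and was called (adjusted p = 0.0018). The effect of antibiotics on Sult1e1 differed between males and females by 0.04 with PXR and 0.23 without it, and between genotypes by 0.48 in males and 0.67 in females, none of which passed (adjusted p from 0.672 to 0.977).

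Sult1a1 in Pxr+/+ males ran from 14.76 to 15.04 in CTRL and from 15.26 to 15.59 in ATB mice. The ranges did not overlap, and the difference was 0.49 (SE 0.12, adjusted p = 0.0362). The second probe gave 0.46 (adjusted p = 0.0607), and both were above 0 within every batch. The call was lost in 10 of 12 cases when 1 mouse was left out (adjusted p over all 12 cases from 0.0408 to 0.0953). It was also lost in 5 of 10 alternatives, the value over all 10 being 0.34 to 0.49. In Pxr-/- males the difference was 0.12 (SE 0.13, adjusted p = 0.917), and the effects of the 2 genotypes differed by 0.38 (adjusted p = 0.852). In females it was 0.13 and 0.21 with and without PXR.

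Sult1d1 by its second probe ran from 10.64 to 11.21 in Pxr+/+ CTRL males and from 11.22 to 12.25 in ATB males, a difference of 0.69 (SE 0.17, adjusted p = 0.0322) with ranges that just missed each other. By its main probe the difference was 0.48 (SE 0.17, adjusted p = 0.126) and the ranges overlapped, so the 2 probes disagreed on the call and not on the direction. The call by the second probe was lost in 6 of 12 cases when 1 mouse was left out (without CTRL male 1, 2, 3 or 4 or ATB male 5 or 6; adjusted p over all 12 cases from 0.0239 to 0.118) and in 4 of 10 alternatives (adjusted p over all 10 up to 0.148). Sult1b1 ran from 11.12 to 11.60 in Pxr+/+ CTRL males and from 11.62 to 12.18 in ATB males. Its ranges also just missed each other, at 0.51 (SE 0.15, adjusted p = 0.0752) and, by the second probe, 0.57 (adjusted p = 0.0774), and it did not pass. By mean level the 4 ATB groups of Sult1b1, from 11.43 to 11.91, stood above the 4 CTRL groups, from 11.04 to 11.40, with every pair of neighbours overlapping.

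None of the members with the widest sex difference was called after antibiotics. Sult2a1 differed by -0.33 (95% interval -0.97 to 0.30) in Pxr+/+ females and by -0.17 (-0.80 to 0.46) in Pxr-/- females, and Sult2a2 by -0.29 and -0.01. Sult3a1 differed by 0.45 and 0.62 and Sult1c2 by 0.11 and 0.43 in the same females, with none passing. Sult5a1 moved by 0.03 to 0.22 over the 4 comparisons. At most 1 male of a group was above background for Sult2a1, Sult2a2 or Sult3a1, so their male groups are not compared.

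**Figure D4:**
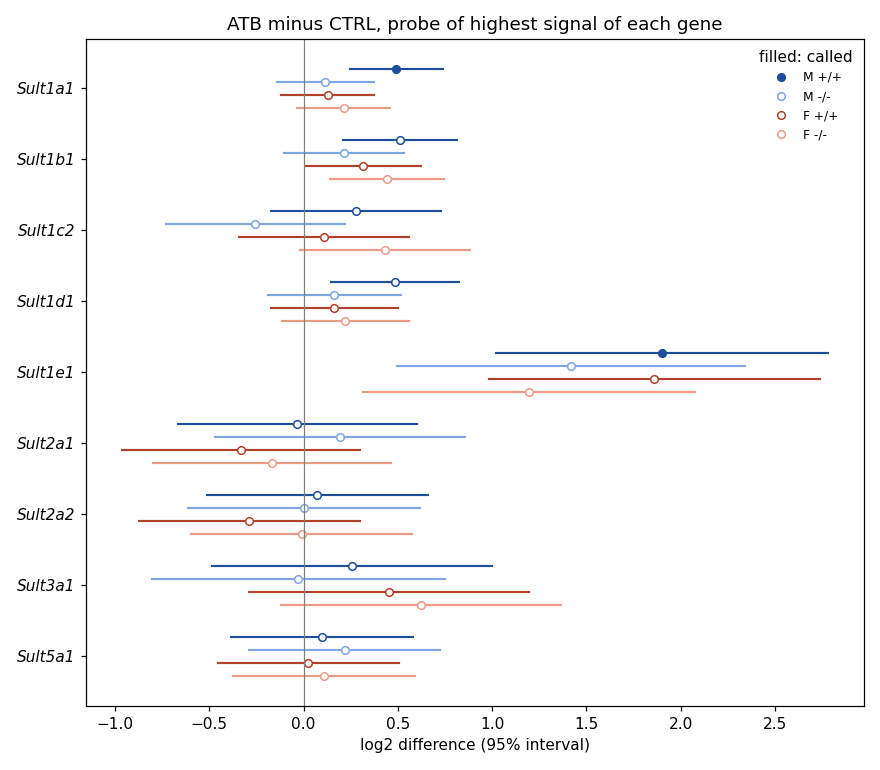
ATB minus CTRL difference in log2 signal (horizontal axis) of each member's main probe in Pxr+/+ and Pxr-/- males and females, with 95% confidence intervals and filled points where the difference was called. Sult1e1 lies above 0 in all 4 combinations, from 1.19 to 1.90, and is filled in Pxr+/+ males only; the second Sult1d1 probe is not drawn, and Sult2a1, Sult2a2 and Sult3a1 in males are levels at background.

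Differences between effects were tested for all members, and limma called none of the 9 in any of the 6 tests. The antibiotic effect differed between genotypes for 0.0183% of all genes in males and 0% in females. The effect of PXR loss differed between the sexes for 0.0229% of genes in CTRL and 0.0503% in ATB mice, and the antibiotic effect differed between the sexes for 0.0457% of genes with PXR and 0.00457% without it. Members at an unadjusted p under 0.05 by limma numbered 2 and 4 for the effect of PXR loss by sex in CTRL and ATB mice. They numbered 1 and 1 for the antibiotic effect by sex in Pxr+/+ and Pxr-/- mice, and 1 and 0 for the antibiotic effect by genotype in males and females. Of all 21873 genes, counted by any probe, 1483 and 2967 had such a p for the effect of PXR loss by sex. In the same order, 3765 and 1583 had it for the antibiotic effect by sex, and 1639 and 3099 for the antibiotic effect by genotype.

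The rest of the family was set beside the members from a list of 13 other cytosolic sulfotransferases, of which 9 were tested. In the sex comparison 6 of the 9 were lower in males in Pxr+/+ CTRL, Pxr+/+ ATB and Pxr-/- CTRL mice and 7 in Pxr-/- ATB mice, while 1 was higher in all 4. The median difference was -2.44, -2.68, -3.18 and -3.22. The 3 with the widest gap in Pxr+/+ CTRL mice were Sult2a6 (-9.75, adjusted p = 1.83e-29), Sult2a4 (-8.87, adjusted p = 1.71e-28) and Sult2a3 (-5.06, adjusted p = 2.15e-12). These are fitted differences, and how far the male levels behind them stood above background is not given here, so the sizes may not be exact. The 1 that was higher in males was Sult2a8, named after its values were seen, which acts on bile acids in mouse liver. It ran from 15.43 to 15.81 in Pxr+/+ CTRL males and from 13.98 to 15.34 in females, without overlap, and differed by 0.98, 0.96, 1.30 and 0.88 in the 4 conditions, with an adjusted p of at most 2.28e-06.

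Among these relatives PXR loss raised 3 of the 9 in CTRL and in ATB females, where 0.224% and 0.178% of all genes were called higher. It moved none in males, where 0.192% of all genes were called in CTRL and 1.1% in ATB mice. Sult2a5 in ATB females ran from 6.63 to 8.87 (median 7.52) with PXR and from 9.07 to 10.74 (median 10.14) without it, and these ranges did not overlap. It differed by 2.07 (SE 0.34, adjusted p = 0.000486) in CTRL females and by 2.43 (SE 0.34, adjusted p = 3.53e-05) in ATB females. Sult2a4 differed by 1.09 (adjusted p = 0.0217) and 1.31 (adjusted p = 0.0176), and Sult2a6 by 1.18 (adjusted p = 0.0163) and 1.26 (adjusted p = 0.0332). The median of the list was 1.09 and 1.26 in CTRL and ATB females, beside -0.11 and 0.01 over all probes. Sult2a5 was above background in no male, and Sult2a4 and Sult2a6 read far lower in males than in females of the Pxr+/+ CTRL mice. The absence of a call in males therefore says little about these 3 genes. No relative was called after antibiotics. Since the Sult2a4 probe shares most of its bases with the Sult2a1 and Sult2a2 probes, the signals of Sult2a4, Sult2a1 and Sult2a2 are not independent. No probe of Sult2a5 or Sult2a6 came out as alike to those probes. The array's annotation does list a Sult2a5 transcript for the Sult2a2 probe.

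The donor side of the reaction was read from 13 names for PAPS synthesis, PAPS and sulfate transport and PAP breakdown, 2 of which are symbols of the same gene. Papss2, the PAPS synthase that predominates in liver, was lower in males in all 4 conditions, with differences of -1.13, -1.21, -0.80 and -0.95 (adjusted p at most 3.15e-05). In Pxr+/+ CTRL mice, where 34% of all genes were lower in males, 4 names were lower, Papss2, Slc26a6, Slc26a1 (-0.49) and Slc13a1 (-0.33), the last 3 being anion and sulfate transporters. In Pxr+/+ ATB and Pxr-/- CTRL mice Papss2 was the only 1 called, where 9.98% and 15.5% of all genes were lower in males. In Pxr-/- ATB mice 4 names were lower, Papss2, the PAPS transporter Slc35b2, and Bpnt2 with its older symbol Impad1. That count of the 13 names is to be read against 27.3% of all genes lower in males there.

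Papss2 was also higher in males without PXR. In CTRL males it ran from 13.56 to 14.32 (median 13.75) with PXR and from 14.39 to 14.59 (median 14.46) without it. In ATB males it ran from 13.37 to 14.09 and from 14.36 to 14.70. Neither pair of ranges overlapped, and the differences were 0.68 (adjusted p = 0.0102) and 0.72 (adjusted p = 0.00117). In females the same probe differed by 0.35 (adjusted p = 0.121) and 0.46 (adjusted p = 0.259), and only another probe of the gene was called, in ATB females. None of the 13 names was called after antibiotics.

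**Figure D5:**
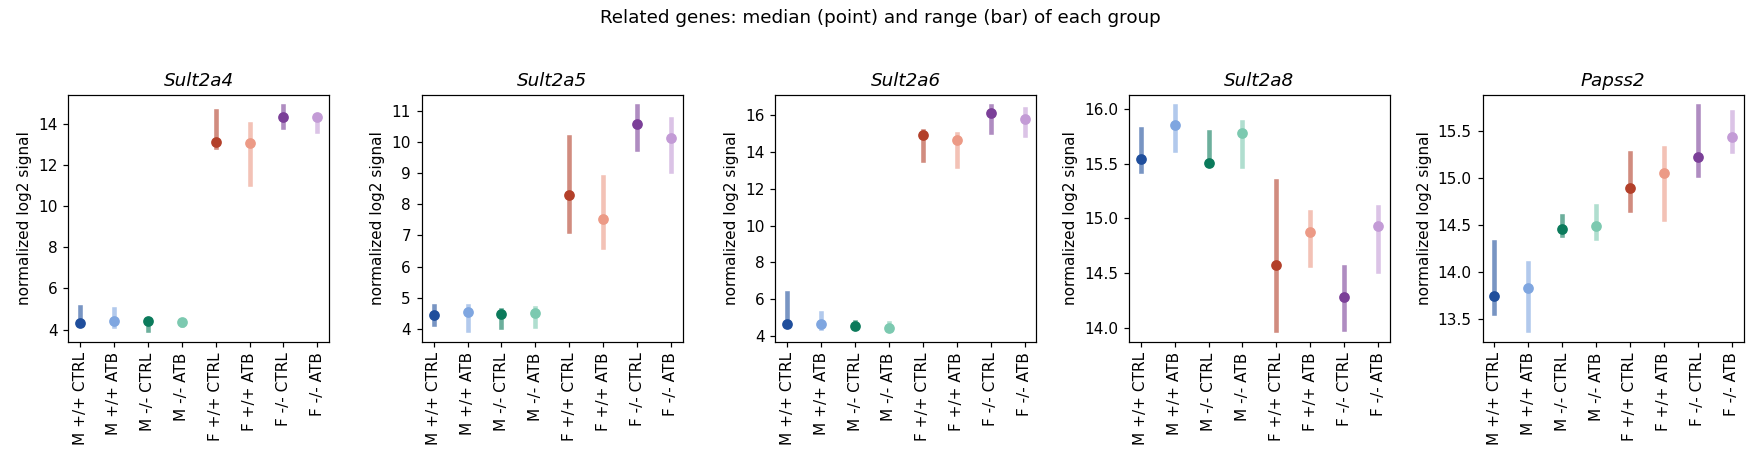
Normalized log2 signal (vertical axis) of Sult2a4, Sult2a5, Sult2a6, Sult2a8 and Papss2 by group (horizontal axis), with a point at the median and a bar from the lowest to the highest mouse. Sult2a4, Sult2a5 and Sult2a6 are higher in Pxr-/- females, Papss2 in Pxr-/- males, and Sult2a8 is higher in males than in females.

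The counts by sex in the remaining lists are to be read against the 36.4% of all genes called, and 34% lower in males, in Pxr+/+ CTRL mice. Of 13 genes tested for sulfatases and sulfatase-modifying factors, 3 were higher and 6 lower in Pxr+/+ CTRL males, the modifying factor Sumf2 being among the 6. The lysosomal arylsulfatase Arsa was higher in males by 1.62, 1.58, 1.64 and 1.14 in the 4 conditions. After antibiotics 1 of the 13 was called in Pxr-/- males, Arsa (-0.67, limma adjusted p = 0.00115), where 0.11% of all genes were called. Of 10 names tested for the oxidation of sulfur to sulfate, none was higher and 4 were lower in Pxr+/+ CTRL males. Cdo1, cysteine dioxygenase, was higher after antibiotics in Pxr+/+ males (0.37, adjusted p = 0.0254) and lower without PXR in ATB males (-0.39, adjusted p = 0.0182). Csad, which leads from cysteine sulfinate toward taurine, was lower after antibiotics in Pxr+/+ females (-2.48, adjusted p = 0.000128) and lower without PXR in CTRL females (-1.55, adjusted p = 0.0104).

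Among 14 receptors and factors known to act on sulfotransferase genes, 1 was higher and 6 were lower in Pxr+/+ CTRL males, where 34% of all genes were lower. Cux2, a female-biased repressor of male genes in liver, differed by -4.61, -4.53, -3.91 and -3.77, and Esr1, the estrogen receptor, by -2.08, -1.72, -1.16 and -1.38. Bcl6, a repressor that competes with STAT5, was the 1 higher in males (1.30, adjusted p = 0.0488). Without PXR, Esr1 was higher in CTRL males (0.72, adjusted p = 0.0261). No factor was called after antibiotics. Of 7 known targets of PXR and its relative CAR, 4 fell after antibiotics in Pxr+/+ males, where 0.187% of all genes were called lower. Cyp2b10 (-3.11), Cyp3a11 (-2.04) and Cyp2c55 (-1.08) fell the most. The 3 sulfotransferases named above rose there, each with a call that was lost on leaving out some mice. Without PXR, 2 of the 7 were higher and 1 lower in CTRL males, 3 higher and 1 lower in ATB males, 3 higher in CTRL females and 2 higher in ATB females. Of all genes, 0.192%, 1.1%, 4.01% and 0.229% were called in these comparisons. Cyp2c55 (2.36, 3.37, 2.43 and 3.03) and Ces2a (0.59, 0.85, 0.77 and 1.37) were higher without PXR in these 4 comparisons, and the transporter Slco1a4 was lower in males (-2.92 and -2.21).

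In order of mean level, all 4 male groups of Sult1a1, Sult1c2, Sult1d1, Sult2a1, Sult2a2 and Sult3a1 stood below all 4 female groups. For Sult1c2, Sult2a1, Sult2a2 and Sult3a1 the highest-ranked male group and the lowest-ranked female group did not overlap, while every other pair of neighbours in the order did. For Sult1a1, Sult1b1, Sult1d1, Sult1e1 and Sult5a1 all neighbours overlapped. Sult1e1 rose from 5.24 in Pxr-/- CTRL males through 5.71 in Pxr+/+ CTRL males, 6.66 in Pxr-/- ATB males, 6.75 and 7.13 in Pxr-/- and Pxr+/+ CTRL females, 7.61 in Pxr+/+ ATB males and 7.94 in Pxr-/- ATB females to 8.99 in Pxr+/+ ATB females. The ATB males with PXR thus stood above both CTRL groups of females in mean Sult1e1.

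The genes whose level was most like that of each member over the 47 arrays are given as a description, since the arrays share sex, genotype, treatment and library with all genes. By Pearson correlation of levels, Sult2a1 lay closest to Sult2a4 and Sult2a2 (both r = 0.999), Sult3a1 to Slc22a26 (0.99), Sult1d1 to Sult1a1 (0.92), Sult1a1 to Echdc3 (0.94), Sult1c2 to Slc16a7 (0.93), Sult5a1 to Gm128 (0.97) and Sult1b1 to Rpl22l1 (0.79). Of the genes with a symbol, BC098222 and Spring1 were closest to Sult1e1 (both 0.79). After the group means were taken out, so that only differences between mice of a group remained, the closest genes were Sult2a4 for Sult2a1 (0.91), Sult2a1 for Sult2a2 (0.87), Inmt for Sult1c2 (0.88), Fam13a for Sult1d1 (0.84), Asl for Sult1a1 (0.80), Bnip3 for Sult1b1 (0.78), Slc27a1 for Sult1e1 (0.70), Grhl1 for Sult3a1 (0.69) and Gm128 for Sult5a1 (0.93). Gm128 was thus the closest gene to Sult5a1 by both measures, and the closest genes of most other members changed once the group means were removed.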

How the data were processed

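RNA of whole liver was hybridised in one colour to 60-base Agilent mouse arrays. The deposited scanner files, made by the authors with Agilent Feature Extraction 10.10.1.1 per their processing notes, give the intensity of each spot, not normalized, of which the median signal was used. The authors also deposited a processed table of 33383 probes whose values are on a log2 scale, used here only as an alternative. The order of steps followed the study's methods, which name a filter, log2, a correction for the washing bath, CrossNorm and limma; the rule of the filter, the number of draws and the fit with the batch kept as a covariate were set here. Spots of a probe were averaged (422 values with outlier flags were left out), log2 was taken, a probe was kept if 5 or more arrays of any 1 group read it well above background, the effect of the 3 washing batches was removed, arrays were normalized with CrossNorm (averaged over 300 draws, seed 1), and limma 3.58.1 in R 4.3.3 was fitted to all 8 groups with washing batch as a covariate. P-values were adjusted by Benjamini-Hochberg over all 32974 probes, and a difference was called at a false discovery rate of at most 0.05 and a fold change over 1.2. A gene counted as called by any of its probes, and its value is that of its brightest probe. Gene names are those of the array, updated through RefSeq for 1535 probes. A probe above background on no array of a group was given only a bound there. Files were read with the data.table package (version 1.17.8) and figures drawn with matplotlib 3.10.9. The members and the lists were chosen with earlier results of these data known. The rule for naming genes was every member, the 3 genes most like each by either correlation, and at most 3 called genes of each list per comparison with the largest change; of these only some are printed. Alternatives were other scalings (quantile, the 75th percentile, normexp with an offset of 50, the values deposited as processed), no filter or a stricter filter, no washing batch, the 6 slides or the replicate number as a block, fits of only the groups compared, and leaving out each mouse. The fit was tested on simulated data. Precision is limited by the number of arrays, 5 or 6 a group.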

Additional observations from a re-analysis of the deposited data

Results flagged for a closer look

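Of 72 combinations of a member and a group, 7 had 1 mouse far from the rest of its group by Dixon's criterion, where chance gives about 1 in 20. For Sult2a1 in Pxr+/+ CTRL males, mouse 2 stood at 6.23 on the log2 scale, with the next at 4.48, and the same mouse stood at 6.06 for Sult2a2, with the next at 4.61. For Sult2a1 in Pxr+/+ ATB males, mouse 1 stood at 5.65, with the next at 4.64. For Sult3a1 in Pxr-/- CTRL males, mouse 2 stood at 6.71, with the next at 4.77, and in Pxr-/- ATB males mouse 1 stood at 6.96, with the next at 4.91. These males were the only ones of their groups above background for those probes, and they remained far below every female. For Sult2a1 in Pxr+/+ CTRL females, mouse 5 stood at 16.66, with the next at 15.06, and the comparison with Pxr-/- females depended on it. For Sult1b1 in Pxr+/+ ATB females, mouse 1 stood at 11.95, with the next at 11.54.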

How the results depend on the processing

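Over 10 alternatives, 1539 values of single members kept their side of the threshold, 20 lost a call and 7 gained one; no called value changed sign, while some that did not pass did, such as the sex difference of Sult1b1 in Pxr-/- ATB mice (-0.05 to 0.18). The members called after antibiotics in Pxr+/+ males, 3 in all, fell to 1 after quantile normalization, with the 75th percentile scaling and with no filter on dim probes, and to 0 with normexp; normexp also called 1 member for PXR loss in CTRL females and 1 in ATB females. With probes above background on all arrays, the sex comparison called 5, 4, 4 and 4 members, since Sult2a1, Sult2a2 and Sult3a1 were then not tested. Leaving out 1 mouse at a time, the sex comparison called 7 to 8 members in Pxr+/+ CTRL mice, 5 to 8 in Pxr+/+ ATB mice, 5 to 7 in Pxr-/- CTRL mice and 6 to 7 in Pxr-/- ATB mice. PXR loss called 1 to 1 in either group of males, 0 to 1 in CTRL females and 0 to 0 in ATB females, and antibiotics 0 to 3 in males with PXR, 0 to 1 in females with PXR and 0 to 0 in either sex without it. The 0 came without CTRL male 1, CTRL male 3 or ATB male 5, and 1 was called without CTRL male 2, CTRL male 4 or ATB male 6. The 6 differences between effects gave 0 to 0. The cause of these changes was not tested.

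Genes called for sex in Pxr+/+ CTRL mice numbered 7953, 3983 after quantile normalization, 4618 with the 75th percentile, 3110 with normexp and 4986 from the authors' values. Of the genes called after antibiotics, 54.2% were lower in Pxr-/- males against 67.3% after quantile normalization, 75% in Pxr+/+ females against 92.3% from the authors' values, and 11.1% in Pxr-/- females against 42.3% after quantile normalization; of those called for PXR loss in CTRL males 16.7% were lower, against 30.4% from the authors' values.

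After the washing batch was removed, same-numbered mice of the groups compared deviated together little on average (mean r from -0.13 to 0.07). Single pairs ran from -0.34 to 0.55. Most same-numbered mice shared a washing batch, so these correlations cannot show what the numbers share through it. With the replicate number as a block, the pairing called 8, 7, 7 and 7 members for sex, 1 for PXR loss in males and 3 for antibiotics in Pxr+/+ males, changing no count. Dim signal limits Sult2a1, Sult2a2 and Sult3a1 in males and the second Sult5a1 probe.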
